A study of Mus musculus with 42 samples.

Results

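Keratins that mark stratified epithelium, 10 genes in all, were followed in mice given BkF, the polycyclic aromatic hydrocarbon benzo(k)fluoranthene. They were taken by symbol from 20018 named genes on the array: the basal keratins Krt5, Krt14 and Krt15, the suprabasal keratins Krt4, Krt13, Krt1 and Krt10, and the stress keratins Krt6a, Krt6b and Krt17. These genes are read by 14 of the 55681 probes, and the brightest probe of each gene was used. All 10 passed the filter on dim probes in forestomach, and 6 passed it in lung and 6 in liver. The animals were male Muta™Mouse, a transgenic mutation-reporter strain, about 11 weeks old, gavaged daily for 28 days and killed 72 h after the last dose. Vehicle mice received olive oil, and the low, medium and high dose groups received 25, 50 and 100 mg BkF per kg body weight per day in the same oil. Forestomach was measured in 4 vehicle, 3 low dose, 4 medium dose and 3 high dose mice (14 arrays), beside 15 lung and 13 liver arrays of the same 15 mice. Each array set 1 tissue RNA (Cy5) against a universal mouse reference RNA pooled from cell lines (Cy3), and a value given without a scale is the log2 ratio of the sample to that reference, unless the sample channel is named. RNA came from a random slice of tissue, so fewer cells of a type and less RNA per cell cannot be told apart.

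Keratins form the intermediate filaments of epithelial cells and work as pairs of a type I and a type II protein. In stratified epithelium, dividing basal cells make KRT5 with KRT14, and KRT15 marks part of that layer. Cells that leave the basal layer switch to KRT1 with KRT10 where the surface cornifies, and to KRT4 with KRT13 in internal linings such as oesophagus. KRT6A, KRT6B and KRT17 are induced in wounded, regenerating or hyperproliferative epithelium. The mouse forestomach is lined by cornified stratified squamous epithelium and borders the glandular stomach, whose pit and parietal cells make GKN1, a gastric mucosal peptide, and ATP4A, the catalytic subunit of the gastric proton pump. A slice taken near the border can hold both linings.

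Sequences upstream of 2 basal members, Krt5 and Krt14, and 2 suprabasal members, Krt13 and Krt10, are shown so that a gene of each layer can be read beside its values below. Each is the 250 bases before the annotated start (for Krt13 the farther upstream of 2 entries), from RefSeq (GRCm38.p6), minus strand, written in the direction of transcription. Capitals mark 4 motifs, searched as letters: GCGTG, the core of the aryl hydrocarbon receptor site, TGANTCA, the AP-1 site, and CACCC, the core bound by KLF factors, on both strands, and the TATA box TATAAA on the gene's strand. No match overlapped another motif.
Krt5, chr15:101712906-101713155: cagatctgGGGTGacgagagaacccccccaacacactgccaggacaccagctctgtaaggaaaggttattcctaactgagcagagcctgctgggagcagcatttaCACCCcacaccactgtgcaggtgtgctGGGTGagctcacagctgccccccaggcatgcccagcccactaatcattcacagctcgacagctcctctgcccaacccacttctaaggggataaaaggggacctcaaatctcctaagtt
Krt14, chr11:100206031-100206280: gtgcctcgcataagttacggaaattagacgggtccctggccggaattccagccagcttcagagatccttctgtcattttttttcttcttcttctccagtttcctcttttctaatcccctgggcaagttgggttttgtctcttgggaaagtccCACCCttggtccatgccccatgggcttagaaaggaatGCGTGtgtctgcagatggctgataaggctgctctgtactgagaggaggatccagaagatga
Krt13, chr11:100121567-100121816: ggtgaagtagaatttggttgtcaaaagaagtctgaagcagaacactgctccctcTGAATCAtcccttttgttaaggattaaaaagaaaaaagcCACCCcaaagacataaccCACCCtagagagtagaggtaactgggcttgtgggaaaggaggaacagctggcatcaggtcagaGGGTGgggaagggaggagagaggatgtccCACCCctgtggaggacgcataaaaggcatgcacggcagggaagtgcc
Krt10, chr11:99389365-99389614: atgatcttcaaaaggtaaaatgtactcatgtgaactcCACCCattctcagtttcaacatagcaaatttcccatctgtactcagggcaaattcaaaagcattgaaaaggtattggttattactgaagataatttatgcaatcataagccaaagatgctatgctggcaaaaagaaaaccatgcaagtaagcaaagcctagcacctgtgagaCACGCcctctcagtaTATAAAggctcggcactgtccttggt
CACCC was found 3 times before Krt5, 1 time each before Krt14 and Krt10 and 4 times before Krt13, and 52% of 32851 RefSeq windows of the same length hold it. GCGTG was found 1 time before Krt14 and 1 time, on the opposite strand, before Krt10, against 28.2% of all windows. The AP-1 letters occurred only before Krt13 among these 4 (6.75% of all windows), and TATAAA only before Krt10 (7.59%). Such matches describe the letters and were not tied to any change measured here.

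The reference channel did not behave as a constant at the keratin probes, and this bears on every log ratio below. At the Krt5 probe the reference signal, as log2 of the scanned median, lay between 11.97 and 14.03 on the 14 forestomach arrays. On 14 of the 15 lung arrays it was no higher than 6.49, and on liver arrays it lay between 5.78 and 6.26. After quantile normalisation the reference channel was higher in forestomach than in lung by 6.81 for Krt5, 3.76 for Krt14, 2.88 for Krt1, 2.73 for Krt10 and 2.14 for Krt13, on the log2 scale. The other members shifted less, by 2.09 for Krt15, 1.90 for Krt17, 1.295 for Krt6a, 0.97 for Krt4 and 0.58 for Krt6b. The shift over all probes kept in forestomach had a median of -0.0094, and its 99th percentile was 0.84. Within forestomach the reference at Krt1 ran from 6.18 to 10.89 while the sample channel ran from 9.69 to 15.46. A log ratio divides by this value, so the sample channel alone, quantile-normalised between arrays, is given beside the log ratio for many of the differences below, a choice made after the channels had been seen. The glandular stomach gene Atp4a showed the same, with a reference signal of 4.86 to 9.42 in forestomach and 4.86 to 5.27 in lung. Across forestomach arrays its 2 channels correlated at r = 0.941, and those of Gkn1 at r = 0.867. The glandular score used below is made of these log ratios and takes this in. What raised the reference signal was not tested.

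**Figure D1:**
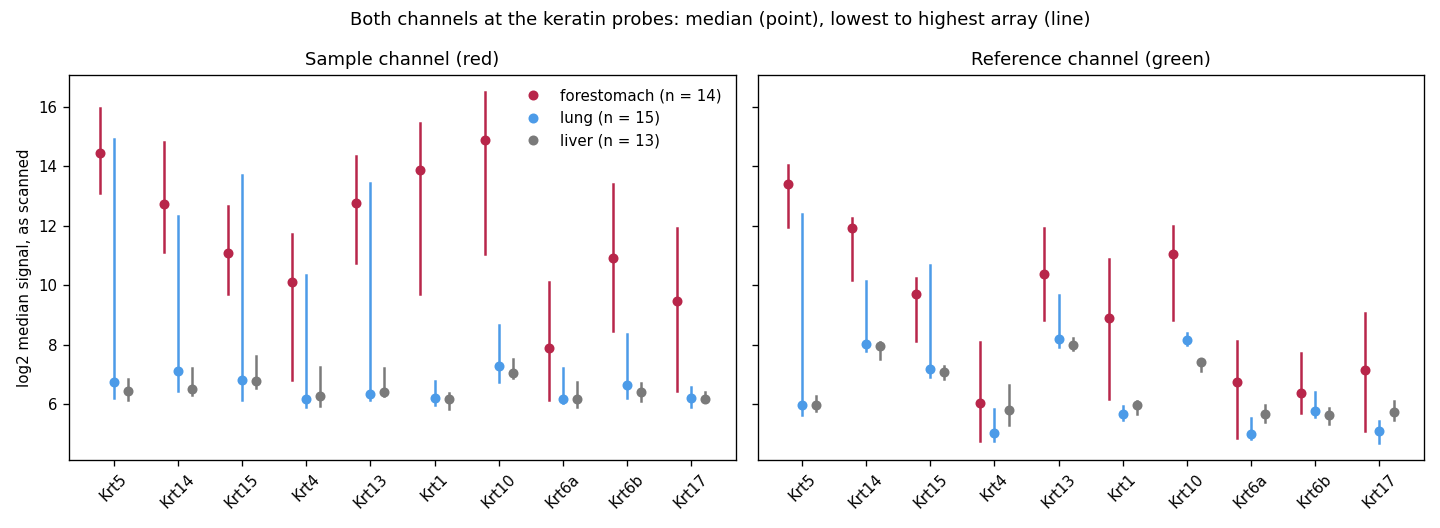
Scanned log2 median signal at the probe of each keratin in the sample channel (left) and the reference channel (right). Points are medians and lines span the lowest to the highest array of forestomach (n = 14), lung (n = 15) and liver (n = 13), and the reference channel at Krt5 spans 11.97 to 14.03 in forestomach against a lung median of 5.98.

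Keratin levels set forestomach apart in vehicle mice. All 9 members that could be tested were higher in forestomach than in lung and than in liver (limma, 4 mice each), and Krt6a was too dim to be kept in that fit. Of these, Krt1, Krt4, Krt5, Krt13 and Krt17 passed the filter on dim probes only with the forestomach arrays, where they are high. Their calls thus add no support beyond the values. Over all 28198 probes tested, 16.8% were called higher in forestomach than in lung and 23.7% higher than in liver. The basal keratin Krt5 had a log2 ratio of 3.63 ± 0.20 (SD, n = 4) in forestomach, -0.018 ± 0.13 in lung and 0.22 ± 0.36 in liver. Its difference from lung was 3.65 (SE 0.17, limma adjusted p = 6.49e-10) as a log ratio and 8.89 in the sample channel alone, with the probe well above background on only 2 of the 4 vehicle lung arrays (1 of 4 in liver). Krt14, its type I partner, was 4.44 higher than in lung (SE 0.13, limma adjusted p = 7.98e-12) and 7.29 higher in the sample channel. Krt15 exceeded lung by 4.70 and liver by 3.54, or by 5.68 and 4.89 in the sample channel, where 1 of 4 vehicle lung and 4 of 4 vehicle liver arrays were well above background, with all 4 forestomach values above every lung and liver value. With the log ratio of the scanner software these Krt15 differences were 6.72 from lung and 2.85 from liver, so their size rests on the processing.

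The suprabasal keratins were also higher in forestomach. Where no vehicle array of a tissue had a probe well above background, its level there has only an upper bound, and a fold is given as the lower of the bounds under 2 normalisations of the sample channel (quantile, and loess with Aquantile). No vehicle lung or liver array had Krt1 well above background, and its sample signal in forestomach was at least 546-fold higher than in lung and at least 542-fold higher than in liver (limma adjusted p = 2.37e-13 and 3.26e-14 on the log ratio). Krt10, the partner of Krt1, was above background in all 12 vehicle arrays and exceeded lung by 7.01 (SE 0.14) and liver by 6.35 (SE 0.14), or by 9.37 and 9.13 in the sample channel. Krt4 was not well above background on any vehicle lung array and was at least 62.3-fold higher in forestomach (limma adjusted p = 1.31e-12). Krt13 exceeded lung by 6.45 (SE 0.19), by 7.92 in the sample channel and by 8.99 with the log ratio of the scanner software, with 1 of 4 vehicle lung arrays above background. Its probe was not well above background on the 4 vehicle liver arrays and was at least 218-fold higher in forestomach (limma adjusted p = 4.26e-12), while a second Krt13 probe was above background on 1 of those 4. Krt1, Krt4 and Krt13 passed the filter of that fit only with the forestomach arrays, where they are high. Their p-values thus add no support beyond the values.

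The stress keratins were uneven in vehicle forestomach. Krt17 read 0.59, 0.91, 4.03 and 4.06 in the 4 mice, and Krt6b read 3.98, 5.44, 7.60 and 7.73. Krt6a was above background in only 2 of the 4, at 2.85 and 3.35, and read 0.11 and 0.30 in the others. In each gene the same mice, 2 and 3, were high, and 1 and 4 were low. Mice 2 and 3 shared 1 microarray slide, and mice 1 and 4 were on other slides, so this split cannot be told apart from the slide. Neither Krt17 nor Krt6a was well above background on any vehicle lung array, and Krt17 was at least 5.57-fold higher in forestomach (limma adjusted p = 0.00746). Krt17 passed the filter of that fit only through the forestomach arrays, where it is high, so this p-value adds no support beyond the values.

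**Figure D2:**
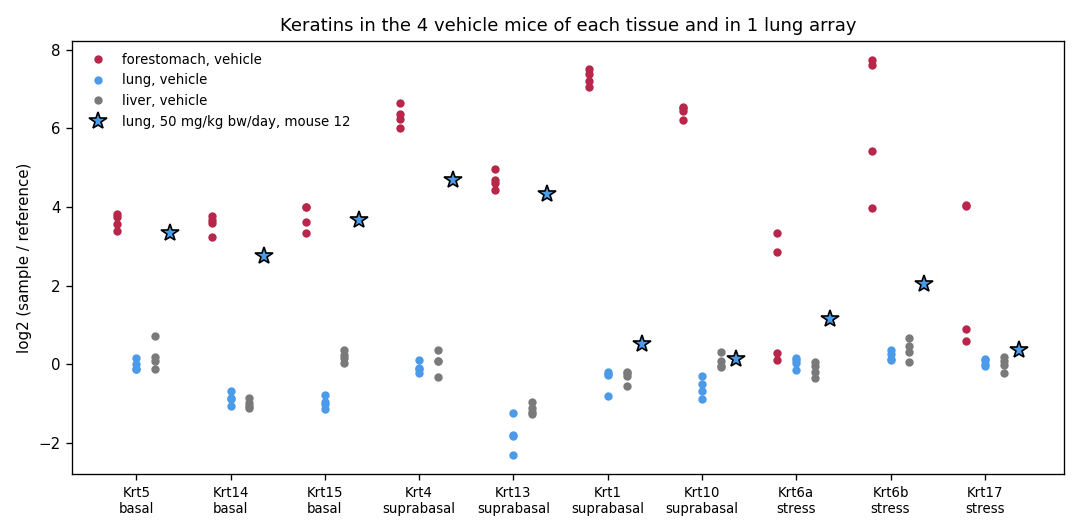
Log2 ratio of sample over reference for each keratin in the 4 vehicle mice of forestomach, lung and liver (points), with 1 medium dose lung array, mouse 12, as a star. Forestomach points lie above the lung points for the basal and suprabasal genes, while Krt6a and Krt17 split into 2 high and 2 low mice.

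No keratin was called at any dose in forestomach (limma, adjusted p at most 0.05 and at least 1.5-fold), where 0% of the 25321 probes tested were called at each dose. In low dose mice 4 members (Krt4, Krt13, Krt10 and Krt15) were lower at an unadjusted p under 0.05, against 3 in medium dose mice (Krt4, Krt13 and Krt10) and 0 in high dose mice. These were 3 of the 4 suprabasal and 1 of the 3 basal genes at the low dose, and 3 of 4 and 0 of 3 at the medium dose, and the layers were not compared by a test. Over all probes the shares lower at that level were 7.86%, 4.89% and 0.829%. On the loess ratio all low dose arrays lay below all vehicle arrays for 2 members, Krt4 and Krt13, and all medium dose arrays did for 1, Krt4. The matching shares over all probes were 9.21% and 2.16%, and 1.11% at the high dose, where 0 members did so. The 3 comparisons share the same vehicle mice.

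**Figure D3:**
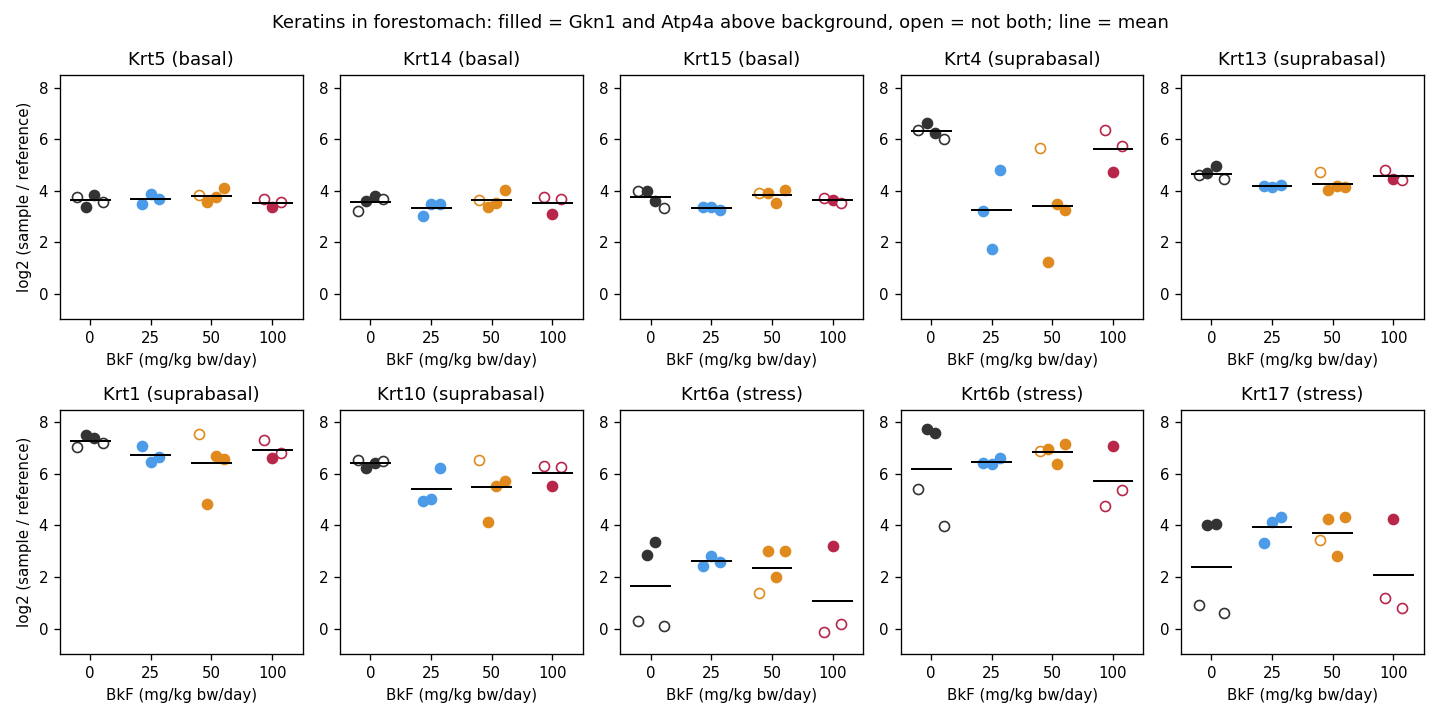
Log2 ratio of each keratin on the 14 forestomach arrays by BkF dose, with the group mean as a line. Filled points are arrays with both Gkn1 and Atp4a above background and open points are the other 5 arrays. Krt4 lies at 1.22 to 4.80 on the 7 filled dosed arrays and above 5.6 on every other array, and Krt6a is 1.99 or more on every filled array.

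Krt4, the type II keratin of internal stratified linings, had the widest range of the 10 keratins over all 14 arrays on the loess ratio. It read 6.02, 6.23, 6.37 and 6.63 in vehicle mice, and 1.75, 3.22 and 4.80 in the low dose mice. In the medium dose mice it read 1.22, 3.26, 3.47 and 5.66, and in the high dose mice 4.75, 5.75 and 6.34. No low or medium dose value reached the lowest vehicle value, while the high dose group overlapped it. Low dose mice differed from vehicle by -3.06 on average (SE 0.86, limma adjusted p = 0.263), medium dose mice by -2.91 (SE 0.79, limma adjusted p = 0.483) and high dose mice by -0.70 (SE 0.86, limma adjusted p = 1). Fitted on only the low dose and vehicle arrays, the first of these had a limma adjusted p of 0.0496 and Krt4 was called, as were 1.32% of all probes in that fit (1.17% of all probes were called lower), and no other fit run here called a member at any dose. In the sample channel alone the 3 differences were -3.17, -3.20 and -1.10. With each array left out in turn, the low dose difference of Krt4 lay between -3.83 and -2.31, the medium dose difference between -3.66 and -2.18 and the high dose difference between -1.07 and -0.27. The size rests on how the ratio was made: with the log ratio of the scanner software the differences were -0.62, -0.73 and -0.48 in order of dose (limma adjusted p = 0.5, 0.573 and 0.999). On that ratio Krt4 read 6.82 to 7.74 in vehicle mice, 6.31 to 6.88 at the low dose and 5.43 to 7.56 at the medium dose, and the groups overlapped.

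Krt13, the type I partner of Krt4, was lower by a smaller amount on the log ratio. Vehicle values were 4.44, 4.60, 4.68 and 4.96, low dose values 4.16, 4.18 and 4.23, and medium dose values 4.02, 4.15, 4.18 and 4.72. The high dose mice read 4.42, 4.46 and 4.79, within or next to the vehicle range. The difference was -0.47 (SE 0.18) at the low dose and -0.40 (SE 0.16) at the medium dose, with 95% intervals of -0.86 to -0.090 and -0.76 to -0.044. In the sample channel alone the same differences were -1.65 (SE 0.42) and -1.51 (SE 0.39), over 3 times as large on the log2 scale, with limma adjusted p of 0.273 and 0.465. A second Krt13 probe gave -0.87 and -0.77 on the log ratio.

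Krt10 and Krt1, the pair of the cornifying layers, also stood lower. Krt10 read 6.22 to 6.55 in vehicle mice, 4.96, 5.04 and 6.24 at the low dose, 4.13, 5.53, 5.75 and 6.55 at the medium dose, and 5.54, 6.28 and 6.31 at the high dose. Its differences were -1.02 (SE 0.46), -0.94 (SE 0.43) and -0.39 (SE 0.46), against -1.92, -1.97 and -0.29 in the sample channel alone. A second Krt10 probe gave -0.15, -0.15 and -0.16, so the 2 probes of this gene disagreed in size. Krt1 read 7.04 to 7.50 in vehicle mice, 6.45 to 7.09 at the low dose, 4.84 to 7.56 at the medium dose and 6.61 to 7.34 at the high dose. Its low dose difference was -0.55 (SE 0.46) on the log ratio and -2.03 (SE 0.96) in the sample channel alone, and its medium dose difference was -0.86 (SE 0.43) and -2.29 (SE 0.89). With the scanner software's ratio these Krt1 differences were -0.18 and -0.42. Mouse 12 of the medium dose group had the lowest value of all 14 arrays for Krt4, Krt13, Krt1 and Krt10. Without it the medium dose difference went to -0.49 for Krt10 and to -0.34 for Krt1.

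The basal keratins had the following log ratios. Krt5 averaged 3.63 ± 0.20 (SD, n = 4) in vehicle mice, 3.68 ± 0.19 (n = 3) in low dose mice, 3.81 ± 0.23 (n = 4) in medium dose mice and 3.52 ± 0.16 (n = 3) in high dose mice. The 95% interval of its high dose difference ran from -0.46 to 0.24. A second, dimmer Krt5 probe, above background on all 14 arrays, gave -1.03, -0.20 and 0.29 in order of dose, opposite in direction to the 0.052, 0.18 and -0.11 of the probe used, and the 2 probes correlated at r = 0.1. Krt14 averaged 3.57 ± 0.24, 3.32 ± 0.25, 3.64 ± 0.28 and 3.51 ± 0.36 in the same order, and its intervals at the 3 doses all held 0. Krt15 was 3.25, 3.36 and 3.39 in the low dose mice against 3.33 to 4.01 in vehicle mice, a difference of -0.41 (SE 0.17, limma adjusted p = 0.393). In the sample channel alone the low dose differences were -0.15 for Krt5 (95% interval -0.96 to 0.66), -0.71 for Krt14 (-1.62 to 0.21) and -0.84 for Krt15 (-1.56 to -0.13, limma adjusted p = 0.29). The medians of the 3 basal differences were -0.25, 0.11 and -0.10 at the 3 doses, and those of the 4 suprabasal differences were -0.78, -0.90 and -0.37. The median over all probes tested was between -0.015 and 0.015.

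**Figure D4:**
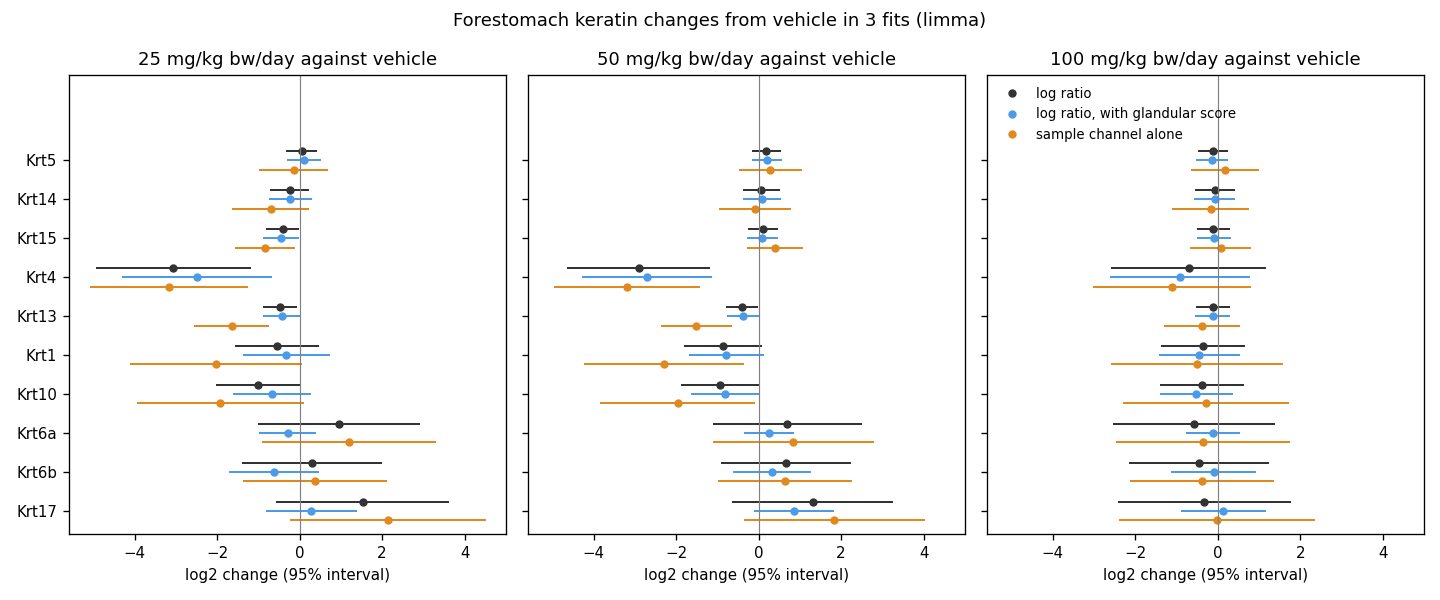
Difference from vehicle of each keratin in forestomach, in log2, at 25, 50 and 100 mg per kg per day, with 95% intervals from limma. Colours give the log ratio, the log ratio with the Gkn1 and Atp4a score in the model, and the sample channel alone. Krt4 lies between -3.20 and -2.49 at the 2 lower doses in these fits, and Krt13 and Krt1 lie further from 0 in the sample channel.

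The stress keratins were spread widely within the vehicle and high dose groups. Krt6a read 2.43, 2.58 and 2.81 in the low dose mice, 1.38, 1.99, 3.02 and 3.02 in the medium dose mice, and -0.14, 0.17 and 3.22 in the high dose mice. Krt17 read 3.31 to 4.33 at the low dose, 2.83 to 4.32 at the medium dose and 0.78, 1.19 and 4.25 at the high dose. Krt6b ranged from 6.41 to 6.60, from 6.37 to 7.16 and from 4.76 to 7.09 in the same groups. The intervals were wide, for Krt6a from -0.98 to 2.89 at the low dose and from -2.51 to 1.36 at the high dose on the log2 scale, and for Krt17 from -0.62 to 3.23 at the medium dose.

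Glandular content differed between the slices. Atp4a was above background on 9 of 14 forestomach arrays and Gkn1 on 11. The 9 arrays with both came from vehicle mice 2 and 3, all 3 low dose mice, medium dose mice 12, 13 and 15, and high dose mouse 17. Atp4a read 3.85 to 6.39 on those arrays and -0.28 to 0.17 on the other 5. The whole list of 16 measured glandular genes moved in the same way: its mean, centred on the median array, ran from -4.32 to 0.44 in vehicle mice, from -0.056 to 0.67 in low dose mice, from -3.59 to 0.65 in medium dose mice and from -3.93 to 0.29 in high dose mice. Chia1, an acidic chitinase of the stomach, and Cblif, gastric intrinsic factor, had the largest high dose differences in that list, -1.67 (SE 2.56) and -1.39 (SE 2.49).

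All 3 stress keratins rose with a score made of Gkn1 and Atp4a, in a fit that held dose as a factor (limma, adjusted p at most 0.05). Over all probes, 7.90% rose with the score. The slope per log2 unit of score was 0.48 for Krt6a (SE 0.046, limma adjusted p = 1.61e-05), 0.48 for Krt17 (SE 0.074, limma adjusted p = 0.00104) and 0.36 for Krt6b (SE 0.073, limma adjusted p = 0.0075). The score fell into 2 sets, -5.11 to -4.65 on the 5 arrays without both markers and -1.67 to 0.89 on the other 9. In the lower set no array had Atp4a well above background, and only that of mouse 11 had Krt6a. The slope of Krt6a thus sets signal against the floor and does not measure a graded relation. With the slide as a block, Krt6a alone kept its call (limma adjusted p = 0.00226), among 4.36% of all probes that rose, with Krt6b at 0.0514 and Krt17 at 0.0692 and slopes of 0.43 and 0.44, and the slope of Krt4 went from -0.22 to -0.065. With the scanner software's own log ratio, on which 4.97% of all probes rose, 2 members were called, Krt6a and Krt17 (limma adjusted p = 0.0304 and 0.0383), with slopes of 0.42 and 0.19. The slope of Krt6b was then 0.14 (limma adjusted p = 0.162) and that of Krt4 -0.0015. The basal slopes were close to 0, from -0.018 for Krt5 to 0.022 for Krt15. The suprabasal slopes were negative and none passed on the log ratio, with -0.22 for Krt4 (limma adjusted p = 0.282) and -0.14 for Krt10 (limma adjusted p = 0.185). In the sample channel alone, where 7.08% of probes rose and 5.24% fell with the score, the 3 stress keratins rose and Krt4, Krt10 and Krt1 fell, with slopes of -0.42, -0.40 and -0.39 (limma adjusted p = 0.00705, 0.0242 and 0.0356).

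**Figure D5:**
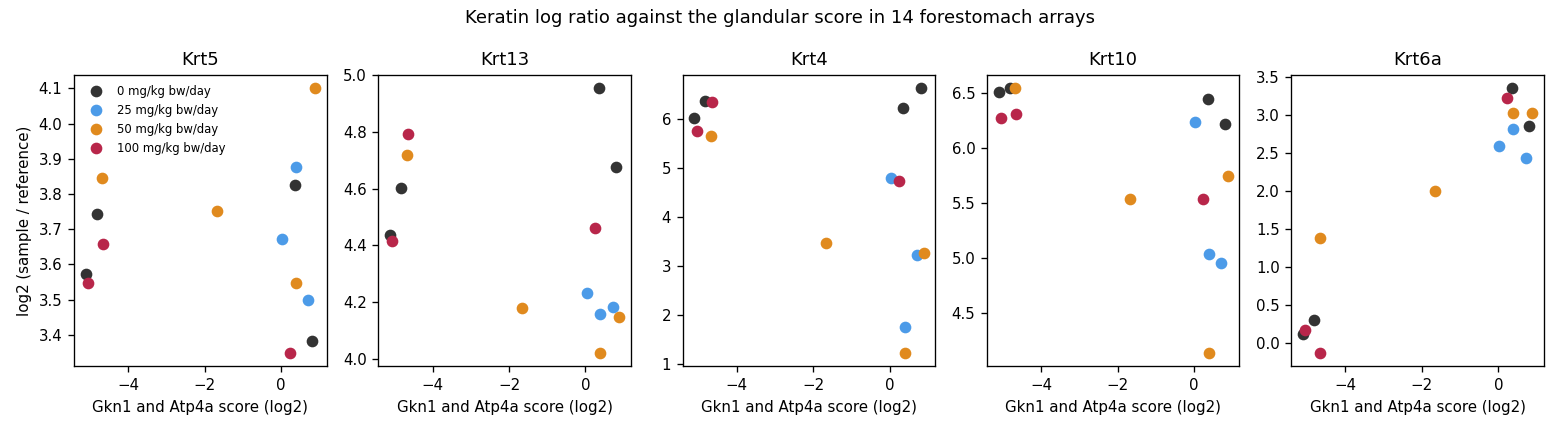
Log2 ratio of 5 keratins (vertical axes, each with its own range) against the Gkn1 and Atp4a score, in log2 units, on the 14 forestomach arrays, coloured by dose. On this loess ratio Krt6a is high wherever the score is high, in vehicle and dosed mice, whereas Krt4 is low only on dosed arrays with a high score. With the scanner software's ratio the Krt4 values of those dosed arrays overlapped the values of the other arrays. Krt5 spans less than 1 log2 unit.

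With the score in the model the low dose difference of Krt6a went from 0.95 to -0.29 and that of Krt6b from 0.29 to -0.63, and that of Krt17 shrank from 1.53 to 0.29. The differences of Krt4 were -2.49 (SE 0.83, limma adjusted p = 0.562), -2.70 (SE 0.72, limma adjusted p = 0.334) and -0.92 (SE 0.78, limma adjusted p = 0.94) in order of dose. Those of Krt13 were -0.44, -0.39 and -0.12. At an unadjusted p under 0.05, 3 members were lower in low dose mice in this fit (Krt4, Krt13 and Krt15), 3 in medium dose mice (Krt4, Krt13 and Krt10) and 0 in high dose mice, against 5.32%, 5.34% and 1.58% of all probes. In the sample channel without the score, 3 members (Krt4, Krt13 and Krt15) were lower at that level in low dose mice, 4 (the suprabasal genes) in medium dose mice and 0 in high dose mice, against 8.51%, 5.27% and 0.64%. With the score in the sample channel fit, Krt4 differed from vehicle by -1.86, -2.79 and -1.39 (limma adjusted p = 0.975, 0.119 and 0.93) and Krt13 by -1.17, -1.36 and -0.48 (limma adjusted p = 0.975, 0.145 and 0.93).

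The arrays with and without the glandular markers can be set side by side for single keratins. On the 2 vehicle arrays with both markers, Krt4 read 6.23 and 6.63, next to 6.02 and 6.37 on the 2 without. On the 7 dosed arrays with both markers it read 1.22 to 4.80, and on the 3 dosed arrays without them 5.66 to 6.34. This holds for the loess ratio. In the sample channel alone Krt4 read 11.60 and 11.62 on the vehicle arrays with both markers and 12.58 and 13.27 on those without. With the scanner software's ratio the dosed arrays overlapped, at 5.43 to 7.56 with both markers and 6.69 to 7.45 without. Krt13 read 4.68 and 4.96 on the vehicle arrays with both markers, 4.02 to 4.46 on the dosed arrays with both, and 4.42 to 4.79 on the dosed arrays without. Krt6a read 2.85 and 3.35 on the vehicle arrays with both markers and 1.99 to 3.22 on the dosed ones. These sets hold few arrays and were not compared by a test, and a slice's glandular content, its dose group and its slide overlap in part. Both vehicle arrays with the markers were on slide 4, and those without were on slides 1 and 3. In vehicle mice the markers and the slide thus cannot be told apart.

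Slides held several dose groups. With the slide as a block, the difference of Krt4 was -2.42, -2.40 and 0.11 in order of dose. Within the single slides that held both groups it was -3.16 and -1.22 for the low dose, -0.71, -2.55 and -3.17 for the medium dose and -0.27 and -0.090 for the high dose. For Krt13 the within-slide differences were -0.42 and -0.20, then 0.12, -0.26 and -0.67, then -0.020 and -0.023. Each within-slide value rests on 1 dosed array and 1 or 2 vehicle arrays.

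Other genes of stratified epithelium, from lists fixed by name, had 0 called at any dose. Over all probes 52.2%, 47.2% and 49.2% were lower than vehicle in order of dose. Of 13 measured genes of the cornified envelope, the cross-linked protein coat of dead surface cells, 12, 12 and 11 were lower than vehicle at the 3 rising doses, with medians of -0.81, -0.78 and -0.30, and 6, 7 and 0 were lower at an unadjusted p under 0.05, against the shares of 7.86%, 4.89% and 0.829% of all probes. Sprr1b, an envelope precursor, stood at -1.30, -1.70 and -0.91 (SE 0.49, 0.46 and 0.49) in order of dose, and Tgm3, a cross-linking transglutaminase, at -2.09, -1.63 and -0.49 (SE 0.44, 0.41 and 0.44). Of 15 transcription factors of this epithelium 13, 11 and 8 were lower, with medians of -0.89, -0.28 and -0.0097, of which 8, 3 and 0 reached that level. Sox2 stood at -0.80, 0.088 and 0.91 and Ovol1 at -1.91, -1.13 and -0.39. Of 12 measured desmosome genes, which join cells to each other, 9, 8 and 5 were lower (6, 3 and 0 at that level), while 3 rose and 1 fell with the glandular score, against 7.90% and 2.42% of all probes. Dsc1 stood at -2.83, -2.28 and -0.78 (unadjusted p = 0.00145, 0.00388 and 0.286) and Dsg3 at -1.37, 0.39 and 0.56.

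The list of 10 hemidesmosome and basement membrane genes, which anchor basal cells, had 7, 10 and 9 members higher than vehicle in order of dose, with medians of 0.31, 0.41 and 0.41, of which 1, 3 and 1 were higher at an unadjusted p under 0.05, against 4.26%, 2.69% and 1.37% of all probes. Itgb4, the integrin chain of the hemidesmosome, stood at 0.71, 0.96 and 0.87 (limma adjusted p = 0.342, 0.483 and 1), and Col17a1, its transmembrane collagen, at -1.03, 0.27 and 0.99. Of 9 cycling cell genes, 9, 4 and 2 were higher in order of dose (2, 0 and 0 at that level), with medians of 0.43, -0.019 and -0.22. At the high dose Ccnb1 stood at -0.36 and Cdk1 at -0.35.

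Among the other 43 keratins with a probe, 24 passed the filter in forestomach and 0 were called at any dose. Their median difference was -0.095, -0.12 and -0.10 at the 3 doses. The largest high dose differences were 0.61 for Krt84, 0.60 for Krt8 and 0.51 for Krt76, and the lowest were -0.66 for Krt72, -0.48 for Krt16 and -0.38 for Krt32, with SEs from 0.45 to 1.85. At the low and medium doses Krt72 stood at -1.92 and -1.80 and Krt32 at -2.19 and -1.02 (limma adjusted p = 0.263, 0.483, 0.259 and 0.607). Of the 24, 8 rose with the glandular score (limma adjusted p at most 0.05) and 0 fell, against 7.90% and 2.42% of all probes. The 5 named Krt7, Krt8, Krt18, Krt19 and Krt20 are of the list of 6 simple epithelial keratins of single-layered linings, with slopes from 0.34 for Krt7 to 0.98 for Krt19. Krt16, the usual type I partner of Krt6, had a slope of 0.49 (limma adjusted p = 0.000231).

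Markers of the other cell types in a stomach wall were read on the same arrays. The mean of 8 smooth muscle genes ran from -0.16 to 0.34 in vehicle mice, and in order of dose from -0.96 to 0.075, from -1.58 to 0.89 and from -0.77 to 0.38. Actg2, a smooth muscle actin, and Des, the muscle filament desmin, stood at -0.77 and -0.72 at the high dose. In order of dose 8, 3 and 7 of the 8 smooth muscle genes were below vehicle, at medians of -0.45, 0.019 and -0.42. Of 7 fibroblast genes 6, 3 and 3 were lower, at medians of -0.34, 0.31 and 0.027, and Lum, a matrix proteoglycan, stood at -1.43 at the low dose (SE 0.55, unadjusted p = 0.0229). None of the smooth muscle, skeletal muscle, fibroblast or leukocyte genes was called at any dose or rose or fell with the glandular score at an adjusted p of 0.05. The 2 largest high dose differences were -0.81 and -0.74 in skeletal muscle (Acta1 and Myh2), -0.44 and -0.41 among fibroblast genes (Lum and Dpt), and 0.72 and 0.41 among leukocyte genes (Cd74 and Lyz2). The part of these cells in the keratin values was not tested.

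The genes whose log ratios were most like those of 3 members were looked up among 13383 named genes over the 14 arrays, as a description. For Krt6a they were Krt16 (Pearson r = 0.981), Anxa10 (r = 0.965), Muc5ac (r = 0.961), Ctse (r = 0.961) and Tspan1 (r = 0.96). For Krt13 they were Slc6a19 (r = 0.933), Dsg1b (r = 0.932), Pnpla1 (r = 0.929) and 4930412C18Rik (r = 0.924). For Krt5 they were Acsl4 (r = 0.885), Man1c1 (r = 0.865), Adamts9 (r = 0.848), Msn (r = 0.842) and Slc39a13 (r = 0.84). The arrays share slides and fall into those with and without glandular markers, and a correlation over them takes both in.

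Of the 15 lung arrays, 1 stood apart at the keratin probes, that of mouse 12 in the medium dose group. Krt4 read 4.68 there against -0.28 to 0.23 on the other 14 lung arrays, and Krt13 read 4.34 against -2.34 to -1.23. Among the basal genes Krt5 read 3.33 against -0.12 to 1.14, Krt14 2.76 against -1.20 to -0.60 and Krt15 3.67 against -1.13 to 0.36. Krt6b read 2.04 against -0.22 to 0.37 and Krt6a 1.14 against -0.26 to 0.19. Krt1 read 0.53 against -0.81 to -0.023, Krt10 0.14 against -0.92 to -0.22 and Krt17 0.36 against -0.36 to 0.33. The log ratio of each keratin was thus highest on this array, but in the sample channel alone Krt10 was not, at 8.06 against up to 8.65 on the other 14. The reference signal there was 12.40 for Krt5 and 9.67 for Krt13, and it was above every other lung array for 6 of the 10 keratins. For Krt1, Krt10, Krt6b and Krt17 it was not (5.54, 8.07, 6.24 and 5.38 against up to 5.93, 8.41, 6.41 and 5.43). The glandular marker Atp4a was above background on 1 lung array, that of low dose mouse 7, at 1.64 with Gkn1 at 1.46. Mouse 7 also had the next highest Krt5 and Krt15, at 1.14 and 0.36. On the lung array of mouse 12 Gkn1 read 0.33 and Atp4a -0.027. What set the array of mouse 12 apart was not tested.

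In lung and liver 0 of the 6 members tested in each tissue were called at any dose, against 0%, 0.0153% and 0.0336% of probes in lung and 0%, 0.0427% and 0.0525% in liver at the low, medium and high dose (limma). At an unadjusted p under 0.05, 1 member passed, Krt15 in lung at the medium dose, against 1.76%, 4.25% and 8.02% of all lung probes and 1.53%, 10.7% and 7.80% of all liver probes in order of dose. Without the array of mouse 12 its difference there went from 1.59 (unadjusted p = 0.0379) to 0.58 (unadjusted p = 0.0509), and that of Krt13 from 1.06 to -0.16 (limma adjusted p = 1 for both without it). The Krt13 difference in lung is that of its second probe, the brighter one in lung, and the array values above are of the probe used in forestomach. In liver the 6 differences lay between -0.29 and 0.070 at the 3 doses. The difference between the dose effects in forestomach and in lung was tested for the 6 members measured in both, and the smallest limma adjusted p was 0.532, for Krt10 at the medium dose (difference -1.16). It leans on mouse 12, without which the medium dose difference of Krt10 was -0.49 in forestomach and 0.053 in lung.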

How the data were processed

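The authors deposited 1 scanner file per array, with the median intensity of the red (sample, Cy5) and green (reference, Cy3) channel of each spot on a linear scale, beside the log10 ratio of Feature Extraction (10.7.3.1 for lung and forestomach, 11.0.1.1 for liver). A table of log2 ratios processed by the authors was also deposited. Its rows matched the scanner files for lung and forestomach but not for liver, whose columns were not used.

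Median intensities, not background-subtracted, were normalised by loess within each array (limma 3.58.1, R 4.3.3), with control and outlier spots at weight 0, and the remaining spots of 1 probe were averaged. Probes were named by RefSeq accession (GRCm38.p6): 26413 of 55681 probes (47.4%) had a symbol. Probes entered a fit if the scanner software called them well above background in red on 3 forestomach, 3 lung or 2 liver arrays or more, or on 4 of the 12 vehicle arrays. Dose groups were compared with vehicle by limma within a tissue (all groups in 1 fit, Benjamini-Hochberg over all kept probes, adjusted p at most 0.05 and 1.5-fold). The study's own MAANOVA permutation test was not run. Vehicle tissues were compared by limma. The glandular score was the mean of Gkn1 and Atp4a log2 ratios, each less its median. Tissues of 1 mouse are paired; correlations of their deviations ran from -0.0407 to 0.331 with lung and from -0.027 to 0.0343 with liver. Within a tissue every sample is a separate mouse, and the number of arrays limits the precision. The scripts were tested on simulated data.

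The members and the lists of other genes were chosen with earlier results of these data known. Named genes were the members, Gkn1, Atp4a, the 3 highest and 3 lowest other keratins at the high dose, the 2 largest high dose differences of each list, any called gene, and the 5 genes most like Krt5, Krt13 and Krt6a, of which 1 is not reported here. The alternatives tried were the scanner software's ratio, normexp background correction (offset 50), the authors' table, no filter, the slide or mouse as a block, only 2 groups, other probes, glandular covariates, each array left out, and the sample channel alone, which was added after the channels were seen.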

Additional observations from a re-analysis of the deposited data

Results flagged for a closer look

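Of 70 sets of 4 mice, 1 for each keratin, tissue and dose group of that size, 7 held 1 value far from the other 3, and chance alone flags about 1 in 20 such sets. The gap to the nearest mouse, as a share of the range, was 0.949 for Krt4, 0.912 for Krt13, 0.902 for Krt5, 0.869 for Krt14, 0.847 for Krt15 and 0.963 for Krt6b in medium dose lung, in each case with mouse 12 on the high side. The remaining one was Krt1 in vehicle lung, with a share of 0.898, where no array was above background. In forestomach no keratin had such a value.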

How the results depend on the processing

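With the mouse as a replicate block, which pairs the tissues of 1 animal, 9 members were called in forestomach against lung and 9 against liver, as without it, and the block changed no other call. The dose comparisons are between different mice, so no pairing applies there. With only the groups compared in the fit, 1 member was called at the low dose in forestomach (Krt4, -3.06). On the glandular score 3 members were called, where 7.90% of all probes rose. The slide block left 1 called (4.36% rose) and the scanner software's ratio 2 (4.97% rose). The sample channel alone gave 6, where 7.08% rose and 5.24% fell. With each array left out in turn, the counts were 0 to 0 at each dose in each tissue, 9 to 9 between tissues and 3 to 3 on the score. The number of arrays limits all comparisons, and Krt6a was not well above background on 4 of the 14 forestomach arrays. With the scanner software's ratio the low dose difference was 0.52 for Krt17 and 1.44 for Krt6a, against 1.53 and 0.95. The authors' table could not be used for liver, so that alternative was not run for liver or for forestomach against liver.

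Among single keratins 39 values turned direction, and none of these was called. In the sample channel alone these were Krt5 (-0.15) at the low dose, Krt14 (-0.086) at the medium dose, Krt5 (0.18) and Krt15 (0.073) at the high dose, and the slope of Krt15 (-0.023). With the other probe of Krt5 they were -1.03, -0.20 and 0.29 at the 3 doses, from a dim probe with r = 0.1 to the one used. With the slide as a block the high dose differences were 0.11 for Krt4, 0.0057 for Krt13 and 0.080 for Krt1. With the Gkn1 and Atp4a score they were -0.29 for Krt6a and -0.63 for Krt6b at the low dose and 0.14 for Krt17 at the high dose, and with the whole glandular list -0.38, -0.67 and 0.015, and -0.0028 for Krt6a at the medium dose. The cause of these turns was not tested.

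Leaving out 1 array at a time turned some small values. The low dose difference then lay between -0.045 and 0.14 for Krt5 and between -0.44 and 0.81 for Krt6b. At the medium dose the ranges were -0.059 to 0.16 for Krt14, -0.030 to 0.21 for Krt15 and -0.080 to 1.17 for Krt6b. At the high dose they were -0.19 to 0.14 for Krt14, -1.64 to 0.037 for Krt6a, -1.18 to 0.069 for Krt6b and -1.42 to 0.32 for Krt17. The slopes on the score ranged from -0.033 to 0.020 for Krt13, from -0.030 to 0.030 for Krt14 and from -0.0022 to 0.041 for Krt15.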
